A study of Drosophila melanogaster with 18 samples.

Results

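The genes described here build the mitochondrial ribosome, the respiratory chain and the tricarboxylic acid (TCA) cycle of Drosophila melanogaster, and all of those measured are encoded in the nucleus. They were chosen by symbol: a probe was taken when the platform annotation listed exactly 1 gene for it and that symbol named a mitochondrial ribosomal protein, a subunit of respiratory complexes I to V, cytochrome c or an enzyme of the TCA cycle. The rule found 42 genes, each with 1 probe, among 4955 probes with a single gene symbol and 5620 probes in all. They comprised 12 mRpL and 6 mRpS genes of the mitochondrial ribosome and 7 genes counted as TCA cycle enzymes. The other 17 were respiratory chain subunits (7 of complex I, 2 of complex II, 1 of complex III, 2 of complex IV and 5 of complex V). By symbol alone, mRpL genes are called large subunit and mRpS genes small subunit here. The place of each protein in the ribosome was not checked. The 41 genes with values on all slides were tested, and blw, the alpha subunit of ATP synthase, was not. The rule found no probe for cytochrome c, citrate synthase, fumarase or malate dehydrogenase, which are not analysed here.

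Total RNA of animals switched to banana was hybridised together with RNA of controls on a cornmeal diet, on 2-colour spotted arrays, to follow expression during a dietary shift. The labels used here give no strain, stage, sex, age or tissue and no duration of the switch. There were 6 slides with 3 sets of replicate spots each, which gave 18 columns of ratios. The slides formed 3 dye-flip pairs, in which the channels of the diets were exchanged: slides 2 and 3 (pair 1), slides 30 and 29 (pair 2) and slides 28 and 25 (pair 3), with banana RNA in channel 1 on the slide named first. Spot sets are repeat spots and a flip is a repeat hybridisation, so the flip pair was the replicate (n = 3). Separate cultures are not stated for the pairs, and the p-values therefore cover only the spread among these 3 pairs, possibly a technical one.

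The sources used here do not give which channel is the numerator of the deposited ratios. All slides were turned to the orientation of those carrying banana RNA in channel 1, and only the sign of a ratio is stated. With channel 1 as numerator, positive values stand for more RNA on banana than on cornmeal; with channel 2 as numerator they stand for the opposite. The logarithm's base is not given either, and values were taken as log2. Over all 4723 rows tested, the unturned slides of a pair correlated at -0.20, -0.38 and -0.09 in pairs 1, 2 and 3, so the values turned only in part with the flip. Over 40 of the genes described here, without the complex II gene SdhAL, the correlations were -0.04, 0.06 and 0.54. Differences among these genes thus did not turn with the flip, and in pair 3 they kept their sign in part. A shift common to the genes does not enter these correlations. Each column held 4860 to 5149 values, and precision is limited by the number of arrays. Because whole RNA was compared, fewer cells of a type and less RNA per cell cannot be told apart.

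Mitochondria carry out oxidative phosphorylation. The TCA cycle oxidises acetyl groups derived from sugar, fat and amino acids and hands electrons to complexes I and II; these pass through complex III and cytochrome c to complex IV, and the proton gradient that is built drives ATP synthesis by complex V. The mitochondrial ribosome translates the few chain subunits encoded in mitochondrial DNA, while its own proteins and most chain subunits are encoded in the nucleus, made in the cytosol and imported.

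No gene of these pathways passed the test for a difference between banana and cornmeal over the 3 pairs. Limma gave an adjusted p under 0.05 for 0 of the 41 genes, as for 0% of all rows. An unadjusted p under 0.05 was reached by 1 of 41 genes, against 8.05% of all rows, and by 5 without pair 1 (12.2% of rows), 0 without pair 2 (4.45%) and 0 without pair 3 (7.28%). Mean log2 ratios lay between -0.38 and 0.30, a largest change of 1.30-fold, and 0 of 41 genes had a mean ratio over 0.5 in size, against 8.53% of rows. The 95% confidence intervals of 40 of the 41 genes spanned 0, and over all 41 the bounds reached from -0.69 to 0.81. The width differed among genes: the narrowest interval was -0.29 to 0.24, for Idh3b, and the widest -0.56 to 0.60, for mRpL54. The slides of Idh3b had opposite signs in every pair, so its narrow interval does not stand for agreement between slides. The median size of the mean ratio was 0.087, below the 0.126 of all rows.

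What the genes shared was their position within each flip pair. In pair 1, 4 of 41 genes had a positive ratio (48.5% of all rows did), in pair 2, 38 of 41 (52.1%), and in pair 3, 32 of 41 (50.8%). The median log2 ratio of the 41 genes was -0.23 in pair 1, 0.25 in pair 2 and 0.14 in pair 3, while the median of all rows was -0.01, 0.01 and 0.00. The mean over pairs thus averaged values of opposite sign: 4 of 41 genes kept one sign in all 3 pairs, against 30.5% of rows, and 0 of 41 on all 6 slides, against 6.65%.

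**Figure D1:**
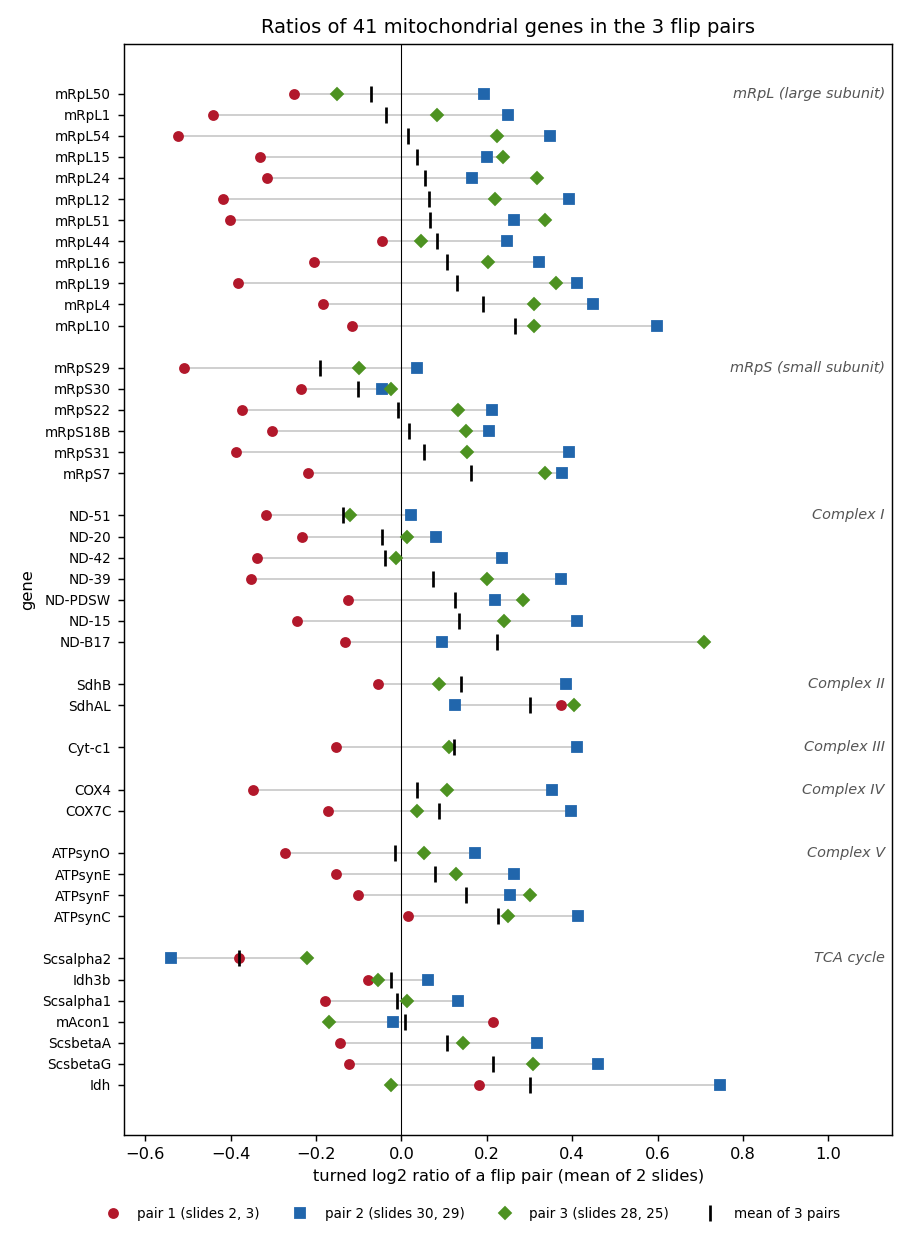
Turned log2 ratios (horizontal axis) of the 41 tested genes, ordered by functional class and mean. Points are the 3 flip pairs, each the mean of 2 slides, and black ticks are the means of the 3 pairs. Pair 1 lies left of 0 for 37 genes and pair 2 right of 0 for 38.

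In the mitochondrial ribosome, all 18 proteins were negative in pair 1, 17 were positive in pair 2 and 15 in pair 3, and the medians were -0.32, 0.26 and 0.21. The large subunit, whose proteins surround the peptidyl transferase centre, had medians of -0.32, 0.29 and 0.23. The small subunit, which decodes the messenger RNA, had -0.34, 0.21 and 0.14.

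Among the large subunit proteins, mRpL10 had the most positive mean, 0.27 ± 0.359 (SD, n = 3 pairs). Its pair ratios were -0.11, 0.60 and 0.31, and limma gave an adjusted p of 0.748. mRpL4, with -0.18, 0.45 and 0.31, and mRpL19, with -0.38, 0.41 and 0.36, followed, with means of 0.19 and 0.13. The lowest means belonged to mRpL50, with -0.25, 0.19 and -0.15, and mRpL1, with -0.44, 0.25 and 0.08. All of these means were smaller than the SD between the pairs. The mean of mRpL54 was 0.02 ± 0.472, and its ratios by slide were -0.56 and -0.49 in pair 1, 0.16 and 0.54 in pair 2 and 0.00 and 0.44 in pair 3. Both slides of pair 1 therefore lay below the other 4 slides. It had the smallest p of the 41 genes in the limma F test for differences between pairs, with an adjusted p of 0.495.

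In the small subunit, mRpS7 had the highest mean, 0.16 ± 0.333, from pair ratios of -0.22, 0.38 and 0.34. mRpS29, a homologue of the mammalian GTP-binding protein DAP3, had the lowest, -0.19 ± 0.284, from -0.51, 0.04 and -0.10. Neither mean exceeded the spread between pairs. mRpS30 was negative in all 3 pairs, at -0.23, -0.05 and -0.03, and limma gave an adjusted p of 0.835. The remaining proteins mRpS22, mRpS18B and mRpS31 lay between -0.39 and -0.30 in pair 1, between 0.20 and 0.39 in pair 2 and between 0.13 and 0.15 in pair 3, so that all 3 changed sign between pair 1 and the other pairs.

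In the respiratory chain, 2 of 16 genes were positive in pair 1, 16 in pair 2 and 14 in pair 3, with medians of -0.16, 0.26 and 0.12. The 7 subunits of complex I, the NADH dehydrogenase that feeds electrons into the chain, had medians of -0.24, 0.22 and 0.20. ND-15, with -0.24, 0.41 and 0.24, and ND-39, with -0.35, 0.37 and 0.20, were highest in pair 2, and ND-PDSW, with -0.12, 0.22 and 0.29, was highest in pair 3. ND-51, the flavoprotein that binds NADH, was lower than these in pairs 2 and 3, at -0.32, 0.02 and -0.12, as was ND-20, with -0.23, 0.08 and 0.01. ND-42 had -0.34, 0.24 and -0.01. These 6 genes had means between -0.14 and 0.14. ND-B17 stood apart in pair 3: its slide ratios were -0.04 and -0.22 in pair 1, -0.18 and 0.37 in pair 2, and 0.71 and 0.71 in pair 3. Both slides of pair 3 lay above the other 4, yet its adjusted p in the limma F test was 0.622. Before centring and turning, the spots of ND-B17 were 0.96, 0.36 and 0.57 on slide 28. On slide 25 they were -1.74, -1.10 and 0.52. Offsets of whole columns enter such uncentred values: ND-15 had -0.83, -0.32 and 0.20 on the same slide, a smaller spread in the same order.

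Complex II, succinate dehydrogenase, belongs to both the chain and the TCA cycle. Its iron-sulfur subunit SdhB had pair ratios of -0.05, 0.39 and 0.09 and a mean of 0.14 ± 0.224. SdhAL, a paralog of the flavoprotein subunit SdhA, had 15 of 18 spot values, and its turned slide ratios were -1.92 and 2.67 in pair 1, 0.69 and -0.44 in pair 2, and 1.03 and -0.22 in pair 3. The slides of each pair had opposite signs, so its mean of 0.30 with an SD between pairs of only 0.153 averaged discordant hybridisations. Limma gave it an adjusted p of 0.618. Whether its probe detects other SdhA-related transcripts was not tested.

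Cyt-c1, the haem-carrying subunit of complex III, had pair ratios of -0.15, 0.41 and 0.11. The complex IV subunits COX4, with -0.35, 0.35 and 0.11, and COX7C, with -0.17, 0.40 and 0.04, gave the same order of pairs. In the ATP synthase, complex V, the stalk subunit ATPsynO had -0.27, 0.17 and 0.05, ATPsynE had -0.15, 0.26 and 0.13, and ATPsynF had -0.10, 0.25 and 0.30. As means of 2 slides, these 6 genes were negative in pair 1 and positive in the other pairs. The slides of ATPsynF had opposite signs in every pair, at -0.24 and 0.04, -0.10 and 0.61, and -0.42 and 1.02. Each of the others had slides of opposite sign in pair 2, in pair 3 or in both. ATPsynC, the subunit of the rotating membrane ring, was positive in every pair, at 0.02, 0.41 and 0.25, with a mean of 0.23 ± 0.200 and an adjusted p of 0.715 by limma. Its turned slide ratios were 0.22, 0.78 and 0.58 with banana RNA in channel 1 and -0.19, 0.04 and -0.08 with cornmeal RNA there, so that slides of opposite orientation did not overlap. blw had 7 of 18 spot values. Before centring and turning, the values were 2.88 on slide 2, 1.44 and -0.82 on slide 3, 5.72, 1.79 and 0.63 on slide 30 and -2.95 on slide 28. Spots of one slide differed widely, and blw was not considered further.

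Of the 7 genes counted as TCA cycle enzymes, 2 were positive in pair 1, 5 in pair 2 and 3 in pair 3, with medians of -0.12, 0.13 and -0.02. mAcon1, the mitochondrial aconitase, which makes isocitrate, ran the other way, with 0.21, -0.02 and -0.17. Idh, the NADP-dependent isocitrate dehydrogenase, was counted with the TCA cycle by its symbol, not by its reaction. It had slide ratios of 0.41 and -0.05 in pair 1, 0.56 and 0.94 in pair 2, and -0.45 and 0.40 in pair 3. Its mean, 0.30 ± 0.398, was the most positive of the 41 genes and smaller than its spread, with an adjusted p of 0.736 by limma. Idh3b, a subunit of the NAD-dependent enzyme, had pair ratios of -0.08, 0.06 and -0.06. Its turned slide ratios were 0.15, 0.29 and 0.17 with banana RNA in channel 1. With cornmeal RNA there they were -0.31, -0.17 and -0.28, so each pair ratio averaged slides of opposite sign.

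Succinyl-CoA synthetase, which splits succinyl-CoA and forms a nucleoside triphosphate, was represented by 4 subunits. ScsbetaG, of the GDP-dependent form, had pair ratios of -0.12, 0.46 and 0.31, and ScsbetaA, of the ADP-dependent form, had -0.14, 0.32 and 0.14. The alpha subunit Scsalpha1, common to such enzymes, had -0.18, 0.13 and 0.01. These 3 subunits kept the order of pairs seen in the ribosome. The second alpha subunit, Scsalpha2, was the 1 gene with an unadjusted p under 0.05 for the diet ratio. Its turned slide ratios were -0.70 and -0.06 in pair 1, -0.24 and -0.84 in pair 2, and 0.06 and -0.50 in pair 3. It was negative on 5 of 6 slides and in all 3 pairs, with a mean of -0.38 ± 0.159 (95% confidence interval -0.69 to -0.07). Limma gave an adjusted p of 0.554, so the difference did not pass, and its paralog Scsalpha1 had a mean of -0.01.

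**Figure D2:**
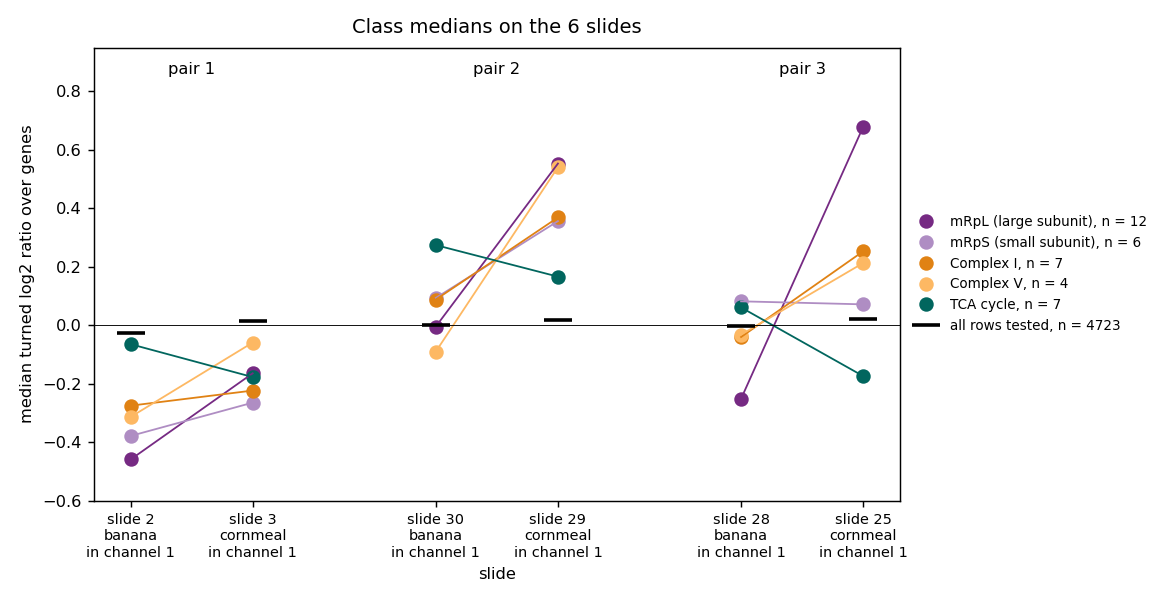
Median turned log2 ratio (vertical axis) on each of the 6 slides for the 5 classes with at least 4 tested genes. Lines join the slides of a flip pair, and black bars are the medians of all 4723 rows, which lie near 0 on every slide. All 5 classes are below 0 on both slides of pair 1.

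Set gene by gene, the ratio of pair 2 exceeded that of pair 1 in 38 of 41 genes, against 53.5% of all rows, and that of pair 3 exceeded pair 1 in 39 of 41, against 52.5%. The median difference between pairs 2 and 1 was 0.528 for the 41 genes and 0.035 for all rows. A stricter count asked both slides of one pair to lie above both slides of the other: 26 of 41 genes met it for pair 2 over pair 1 (21.9% of rows) and 18 of 41 for pair 3 over pair 1 (18.2%). Both slides of pair 1 were negative and both of pair 2 positive in 18 of 41 genes, against 7.79% of rows. These 18 were 8 ribosomal proteins, 7 respiratory chain subunits and 3 TCA cycle enzymes.

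For no single gene did the difference between pairs pass the test. The limma F test gave an adjusted p under 0.05 for 0 of the 41 genes and for 0.106% of rows, and an unadjusted p under 0.05 for 1 of 41, mRpL54, against 9.15% of rows. The counts and medians above describe many genes measured on the same 6 slides, and genes are not replicates. The median range of a gene over the 3 pairs was 0.565, against 0.423 for all rows.

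**Figure D3:**
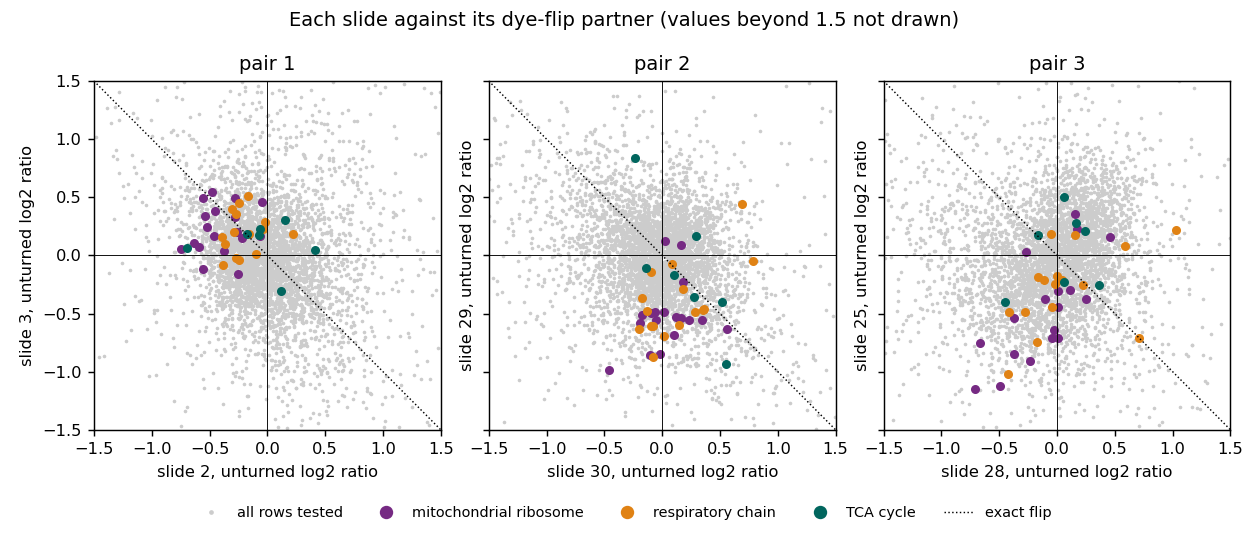
Each slide with cornmeal RNA in channel 1 (vertical axis) against its flip partner (horizontal axis), as log2 ratios before turning, for pairs 1, 2 and 3. Grey points are all rows tested, coloured points the mitochondrial genes, the dotted line marks an exact change of sign, and values beyond 1.5 in size are not drawn. Coloured points gather in the upper left in pair 1 and below 0 on slide 29 in pair 2. In pair 3 many lie in the lower left, where the sign did not change.

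Pair 1 was the pair in which the flip partners gave one sign most often. After turning, both slides agreed in sign for 32 of 41 genes in pair 1 (56.1% of rows), 21 of 41 in pair 2 (55.4%) and 13 of 41 in pair 3 (43%). In pair 2, the median of the 41 genes was 0.49 on slide 29 and 0.09 on slide 30. In pair 3 it was 0.30 on slide 25 and -0.02 on slide 28, so the medians over all 41 genes were higher on the slides with cornmeal RNA in channel 1. The TCA cycle went the other way, with medians of 0.17 on slide 29 and 0.27 on slide 30, and of -0.17 on slide 25 and 0.06 on slide 28. The small ribosomal subunit was level in pair 3, with 0.07 on slide 25 and 0.08 on slide 28.

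With each column centred on its own median, between 5 and 9 of the 40 or 41 measured genes were positive in each of the 6 columns of pair 1. On slide 29 the number was 36 or 37 of 41, on slide 30 between 22 and 30, on slide 25 it was 30 in each spot set, and on slide 28 between 15 and 22. The median SD between centred spot sets was 0.126 for these genes and 0.161 for all features.

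**Figure D4:**
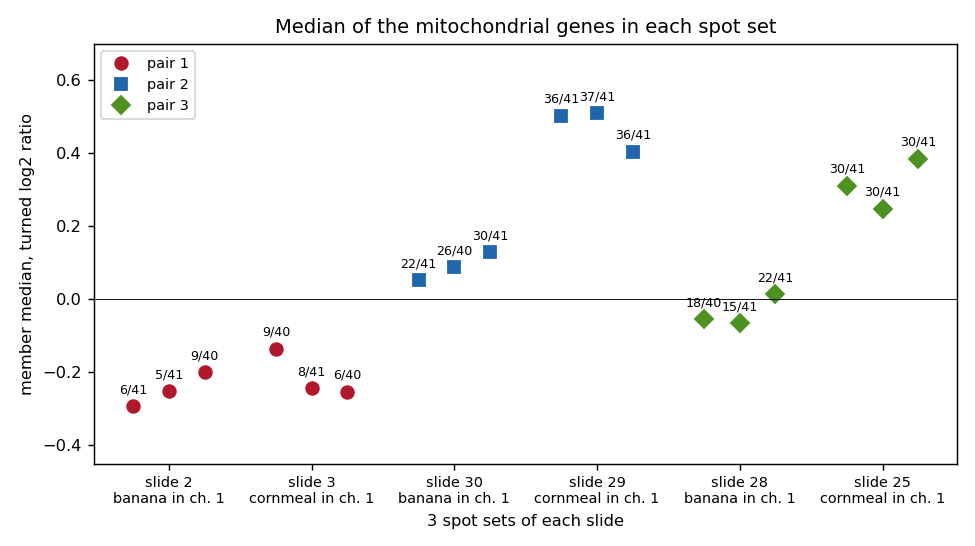
Median turned log2 ratio of the mitochondrial genes (vertical axis) in each of the 18 columns, grouped by slide, with each column centred on its own median. Numbers give the genes with a positive ratio over those with a value. All 6 columns of pair 1 lie below 0 and all 6 of pair 2 above.

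The part of the ratio that followed the channel, not the diet, was obtained as the mean of the unturned slides of each pair. It was negative in 32 of 41 genes, against 54.8% of rows. It was larger in size than the diet ratio in 28 of 41 genes, against 50.7% of rows. Limma gave an adjusted p under 0.05 for 0 of the 41 genes (0% of rows), and an unadjusted p under 0.05 for 10 of 41 (9.19% of rows), of which 9 were negative (5.95% of rows) and 1, ATPsynC at 0.30, was positive. The number reaching that level was 0 without pair 2 (5.95% of rows), 2 without pair 3 (4.49%) and 14 without pair 1 (18.1%).

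By class, the channel part was negative for all 12 mRpL proteins, with a median of -0.29, and for 3 of 6 mRpS proteins, with a median of 0.01. It was negative for 14 of 16 respiratory chain genes, with a median of -0.12, and for 3 of 7 TCA cycle enzymes, with a median of 0.06. These differences between classes were not tested. The largest value was that of mRpL51, -0.55 ± 0.189, with an adjusted p of 0.526 by limma. Its turned slide ratios were -0.75, -0.46 and -0.23 with banana RNA in channel 1 and -0.05, 0.99 and 0.90 with cornmeal RNA in channel 1, so the orientations did not overlap, whereas its mean diet ratio was 0.07. mRpL24 at -0.43, mRpL12 at -0.42, mRpL44 and ATPsynF at -0.41, mRpS7 at -0.40 and mRpL15 at -0.39 came next. mRpL10 and mRpL4, the large subunit proteins with the most positive diet ratios, had smaller channel parts of -0.11 and -0.07.

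**Figure D5:**
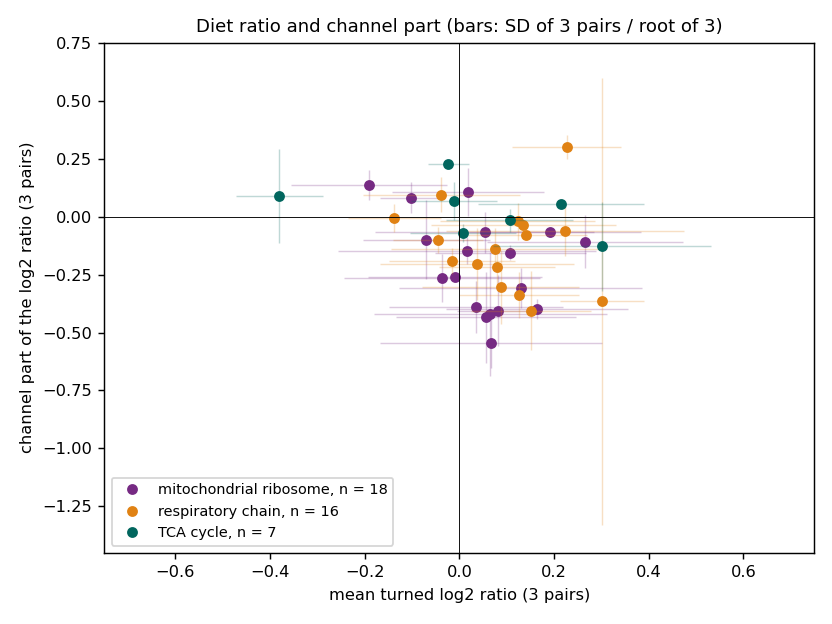
Channel part (vertical axis) against mean diet ratio (horizontal axis) of the 41 genes, both as log2 values over 3 flip pairs, coloured by pathway, with error bars of 1 standard error, the SD of the pairs divided by the root of their number. The 12 mRpL proteins lie below 0 on the vertical axis, and most genes lie within 0.3 of 0 on the horizontal axis.

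Other mitochondrial genes were read from the same fits. They were 25 tested genes for pyruvate entry, protein import and chaperones, mitochondrial gene expression, carriers and dynamics, and antioxidant defence. Of these, 9 were positive in pair 1 (48.5% of rows), 22 in pair 2 (52.1%) and 22 in pair 3 (50.8%), with medians of -0.11, 0.21 and 0.17. Limma gave 0 of the 25 an adjusted p under 0.05 for the diet ratio (0% of rows). An unadjusted p under 0.05 was reached by 1, the mitofusin Marf with a mean of 0.36, against 8.05% of rows. A negative ratio in pair 1 and positive ratios in pairs 2 and 3 were also measured for the mitochondrial pyruvate carrier subunit Mpc1, with -0.27, 0.37 and 0.36, the import receptor Tom20, with -0.22, 0.42 and 0.46, and the transcription factor of mitochondrial DNA, TFAM, with -0.34, 0.09 and 0.16. In the carriers and dynamics list, 6 of 7 genes were positive in pair 1, and the medians were 0.09, 0.21 and 0.25. Proteasome genes had medians of -0.08, 0.07 and -0.01 (14 genes), and cytosolic translation factors had -0.06, 0.08 and 0.02 (20 genes). These last 2 lists were chosen after values had been seen, and their difference from the mitochondrial genes was not tested.

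No tissue is labelled, and ratios give no levels, so tissue markers could be compared only as ratios. The 5 muscle genes measured, from a tissue rich in mitochondria, had median ratios of 0.64, 0.31 and 0.58 in pairs 1, 2 and 3. Of these 5, positive ratios were found for 5, 4 and 5 in the 3 pairs, against 48.5%, 52.1% and 50.8% of rows. Of the 41 mitochondrial genes, 4, 38 and 32 were positive. Limma gave 4 of the 5 muscle genes an unadjusted p under 0.05 for the diet ratio (8.05% of rows) and 0 an adjusted one (0%). The 13 cuticle genes had medians of -0.10, 0.60 and 0.16, with single genes such as TwdlF at 5.78, 2.44 and -4.89. The limma F test for differences between pairs gave TwdlF, 1 of the 13, an adjusted p of 0.038. The 1 testis gene, ocn, had -0.80, -0.11 and 0.09, the 1 yolk gene, Yp2, had -0.18, 0.20 and 0.15, and of the 4 gut genes mag and Amy-p were positive in all 3 pairs, with means of 1.14 and 1.04, and yip7 and Jon65Aiii negative in all 3, with means of -0.88 and -0.81. The part of tissue composition in the differences between pairs was not tested.

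The class medians of the mean ratio depended on which pairs entered. The ribosome median was 0.05 over 3 pairs, 0.25 without pair 1, -0.06 without pair 2 and -0.04 without pair 3. The respiratory chain median was 0.11 over 3 pairs and 0.24, -0.02 and 0.05 when pairs 1, 2 and 3 were left out in turn. Across pairs, the correlation over the 41 genes was 0.14 between pairs 1 and 2, 0.07 between pairs 1 and 3 and 0.41 between pairs 2 and 3. Over all rows it was 0.16, -0.17 and 0.17. These values describe genes sharing slides. The interquartile range of the 41 genes was 0.223, 0.227 and 0.271 in pairs 1, 2 and 3, against 0.414, 0.392 and 0.374 for all rows.

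In the order of genes in the reference annotation, Idh3b and ND-42 lay on one chromosome with 4 coding genes between them. Their pair ratios were -0.08, 0.06 and -0.06 for Idh3b and -0.34, 0.24 and -0.01 for ND-42.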

How the data were processed

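Log ratios were deposited in 18 columns, 1 for each of 3 spot sets on 6 slides, and are taken here as log2. How the authors scanned, corrected or normalised the slides, the dyes, the direction and the log base are not given in the sources used here, and channel intensities were not used, so distance from background is unknown. Deposited values lay between -16.02 and 13.21, and column medians between -0.69 and 0.35.

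Spot sets were averaged, slides centred on their median, probes of 1 gene averaged, slides with cornmeal RNA in channel 1 turned in sign, and the slides of a pair averaged. The flip pairs come from the labels. Pair ratios (n = 3) were tested against 0 with limma 3.58.1 in R 4.3.3, two-sided, with Benjamini-Hochberg adjustment over all 4723 rows and a threshold of 0.05. A limma F test over 6 turned slides, with pair and orientation as terms, was used for pair differences. Its error is technical. The channel part was tested like the diet ratio, without turning. The procedure was tested on simulated data with diet changes and pair differences larger than any measured for the mitochondrial genes. That run therefore gives no measure of power at the sizes reported here.

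Classes with up to 8 tested genes were named in full. Of the large subunit, the 3 highest and 3 lowest means and the 2 smallest p of each test were named, and further genes with a large channel part were chosen after their values were seen, as were the examples from other gene lists. Members and lists were chosen with earlier results of these data known. All 42 gene identifiers matched the reference gene table. Another probe listed with several genes, 1 of them a mitochondrial ribosomal protein, was not used. Protein and promoter sequences were not analysed here, and genome positions were used only for the order of genes. Alternatives covered centring, spot averaging, complete rows, each probe alone, slides with and without the pair as a block, a plain one-sample statistic, no turning, 1 orientation and each pair left out.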

Additional observations from a re-analysis of the deposited data

Results flagged for a closer look

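The medians of the 3 pathways had opposite signs in pairs 1 and 2, and these differences between pairs were not tested. As the mean of its 2 slide medians, the mitochondrial ribosome was 0.604 higher in pair 2 than in pair 1, the respiratory chain 0.483 higher and the TCA cycle 0.341 higher on the log2 scale. Pairs carry no label beyond their slides, so what distinguishes pair 1 is not known here. Among 44 sets of 6 slide values, 0 had a single slide far from the others by Dixon's criterion.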

How the results depend on the processing

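The count of the 41 genes past the adjusted threshold was 0 for the diet ratio, the pair difference and the channel part under every alternative run for each. Over all rows, 5 passed for the pair difference, 12 without centring, 26 with the median of spot sets and 88 among rows with all 18 values, and between 0 (without pair 3) and 57 (without pair 2) with 1 pair left out. For the channel part 0 rows passed, 2 without centring, 2 with the median of spot sets, and between 0 and 12 (without pair 2) with 1 pair left out. For the diet ratio 0 rows passed, 20 when the 6 slides were fitted with the flip pair as a replicate block and 1 without the block; the estimated correlation within pairs was -0.089, and 0 of the 41 genes passed in either. The number of genes with an unadjusted p under 0.05 for the diet ratio was 1, 2 with the median of spot sets, 2 with each column centred (an alternative chosen after seeing the data), 0 with the plain one-sample statistic, 10 with no sign turned, and 0 to 5 (without pair 1) with 1 pair left out. For the pair difference it was 1, 0 without centring, 2 with the median, 3 with complete rows and 0 to 1 with 1 pair left out. For the channel part it was 10, and 0 to 14 with 1 pair left out. Shares of all rows at that level stand above for the main fits, and for the diet ratio and channel part with 1 pair left out. Except with no sign turned, the share was not counted for the other alternatives, nor for the pair difference with 1 pair left out. Those counts of genes therefore have no background beside them. The respiratory chain median was 0.11, and -0.12 with no sign turned. Member means took the other sign in 9, 16 and 7 of 41 genes without pairs 1, 2 and 3, and in 32 with no sign turned. The fit with no sign turned is the same as that of the channel part. Its values, the 10 genes and the median of -0.12 included, therefore describe the channel and not the diet. The causes of the other changes were not tested. Without SdhAL the complex II median was 0.14 in place of 0.22. With 1 pair left out, 2 remained.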
